A study of Mus musculus with 2 samples.

Results

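The genes followed here encode transcription factors of the SOX, RUNX and MEF2 families and the histone deacetylase HDAC4, which regulate growth plate chondrocytes. They were taken as every probe set whose single gene symbol in the platform annotation was one of 10 names, Sox4, Sox5, Sox6, Sox9, Sox11, Runx1, Runx2, Runx3, Mef2c and Hdac4. This gave 44 probe sets of 9 genes, out of 45101 probe sets and 18193 named genes. Runx2 was named by 0 probe sets in the table used and was not analysed here. The signals came from 2 Affymetrix whole-genome mouse arrays, 1 for cartilage enriched in columnar and hypertrophic chondrocytes and 1 for cartilage enriched in round chondrocytes. Both came from wild-type C57BL/6J embryos at E17.5, with total RNA of 3 cartilage plate portions mixed before labelling, and without any treatment or transgene in the labels. The portions were enriched by dissection rather than sorted, and the study's methods place the round portions in the femur. With 1 array per group there is no replicate error and no test, and differences are described by size, beside the same counts over all genes.

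SOX9 starts and maintains the chondrocyte programme and switches on genes of the cartilage matrix, together with SOX5 and SOX6, which bind beside it on the same enhancers. SOX4 and SOX11 act earlier, in mesenchymal progenitors, and are also found in perichondrium. RUNX2 and RUNX3, with MEF2C, drive chondrocytes to hypertrophy, and HDAC4 holds this step back by binding RUNX2 and MEF2 proteins in the nucleus.

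Signals were read on the linear MAS5 scale, and a floor of 100.5 marked signals no higher than those of chemosensory receptor genes. Each gene is represented by its brightest probe set. Differences are log2 values, columnar/hypertrophic minus round, so a positive value is a higher signal in columnar/hypertrophic cartilage. Probe sets at or over the floor were counted as detected. Where only 1 array detected a probe set, the difference is a bound and is given as "at least". The median signal was 105 on the columnar/hypertrophic array and 128 on the round array, and 50.8% and 55.0% of their probe sets were detected. Across all 11703 genes measured (detected on either array), 4.31% had a signal at least 2-fold higher in columnar/hypertrophic cartilage and 6.37% a signal at least 2-fold lower (504 and 745 genes). Counts in the gene lists below are to be read beside these shares. With the arrays scaled to equal medians in place of equal trimmed means, the split was 943 higher and 414 lower, and the median of all measured genes moved to 0.22, against -0.05 as reported. For genes that both arrays detected by several probe sets, the SD of the difference within a gene was 0.367 (4825 genes), a technical spread between probe sets and not between animals.

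Of the 9 regulator genes, 2 were at least 2-fold higher in columnar/hypertrophic cartilage, Runx3 and Mef2c, and 2 at least 2-fold lower, Sox4 and Sox11. Sox5, Sox6, Sox9, Runx1 and Hdac4 were within 2-fold. Over all measured genes the shares were 4.31% higher and 6.37% lower. The median of the 9 differences was -0.62. Of the 44 probe sets, both arrays detected 32, 8 gave bounds and 4 were detected on neither. Among the 40 with a value, 6 passed 2-fold in the higher and 5 in the lower direction. Over all 21589 named probe sets with a value, the shares were 4.27% and 6.00%. The 6 higher were all 5 Mef2c probe sets and 1 of Runx3, and the 5 lower were 2 of Sox4 and 3 of Sox11. Probe sets of the same gene read the same RNA, so these are not counts of genes.

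**Figure D1:**
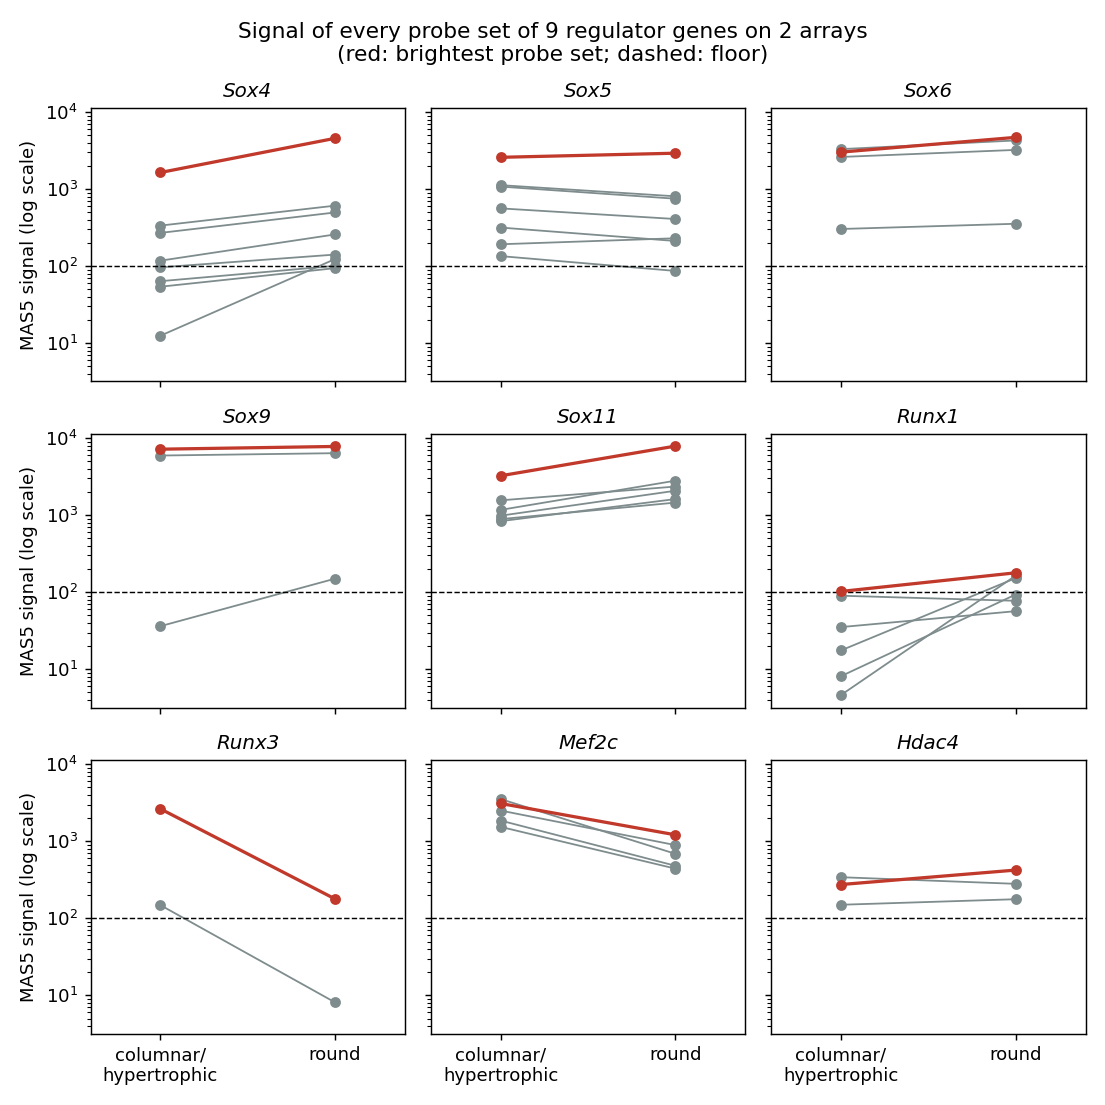
MAS5 signal (vertical, log scale) of each probe set of 9 genes on the columnar/hypertrophic array (left in each panel) and the round array (right), 1 line per probe set and 1 array per group. Red marks the brightest probe set and the dashed line the floor of 100.5. Lines slope down to the round array for Runx3 and Mef2c and up for Sox4 and Sox11, while the upper Sox9 lines are nearly level.

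Sox9, the gene of the chief chondrocyte transcription factor, had nearly equal signals in both portions. Its brightest probe set gave 7203 in columnar/hypertrophic and 7815 in round cartilage, a difference of -0.12. A second probe set gave 5957 in columnar/hypertrophic and 6394 in round cartilage, a difference of -0.10. Both differences were smaller than the technical spread within genes, and scaling to equal medians turned the first to 0.16. The remaining Sox9 probe set was dim, with 36.3 in columnar/hypertrophic and 150 in round cartilage, which gives a bound of at least 1.49-fold lower.

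Sox5, whose protein lacks an activation domain of its own and assists SOX9, showed no settled direction. The brightest of its 7 probe sets had 2589 in columnar/hypertrophic and 2928 in round cartilage (-0.18). Another had 1126 in columnar/hypertrophic and 807 in round cartilage (0.48). In all, 5 of the 7 were higher in columnar/hypertrophic cartilage and 2 lower, between -0.26 and 0.58. The 6 that both arrays detected were within 2-fold, and the dimmest gave a bound, with 135 in columnar/hypertrophic and 86.6 in round cartilage, at least 1.34-fold higher. The mean over its probe sets was 0.29, and scaling to equal medians moved the brightest to 0.10.

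Sox6, which encodes the closest relative of SOX5, was slightly lower in columnar/hypertrophic cartilage by each of its 4 probe sets. The brightest had 3024 in columnar/hypertrophic and 4702 in round cartilage (-0.64). It belongs to a probe set class that can match other transcripts. The next brightest had 3306 in columnar/hypertrophic and 4287 in round cartilage (-0.37), and the remaining 2 gave -0.30 and -0.23. All 4 were within 2-fold.

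The SOXC genes Sox4 and Sox11, which encode a closely related pair of factors of progenitor cells, were both lower in columnar/hypertrophic cartilage. The brightest Sox4 probe set had 1644 in columnar/hypertrophic and 4571 in round cartilage, 2.78-fold lower (-1.48). The other 3 that both arrays detected gave -1.13, -0.88 and -0.86, from signals of 118, 270 and 336 in columnar/hypertrophic against 258, 498 and 610 in round cartilage. A further 3 probe sets gave bounds, all in the same direction, and 1 was not detected. Among the 10235 genes detected on both arrays, Sox4 had the 202nd lowest difference. The mean over all 8 Sox4 probe sets was -0.64, with bounds at their floored values and the undetected probe set entered as 0.

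Both arrays detected Sox11 by each of its 6 probe sets, and each was lower in columnar/hypertrophic cartilage. The brightest had 3255 in columnar/hypertrophic and 7900 in round cartilage, 2.43-fold lower (-1.28). The others had 1561, 1174, 987, 891 and 837 in columnar/hypertrophic cartilage, against 2356, 2808, 2078, 1459 and 1621 in round cartilage. Their differences ran between -1.26 and -0.59, and 3 of the 6 probe sets were at least 2-fold lower. The mean over probe sets was -0.98, and with equal medians the brightest gave -0.999, in both cases just short of 2-fold.

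In these bulk samples, fewer cells of a type and less RNA per cell cannot be told apart. Genes of perichondrium, fibroblasts and tendon were also lower in columnar/hypertrophic cartilage. Of 13 such genes measured, 10 were lower by at least 2-fold and 0 higher, with a median of -1.81. Summed over the 15 listed genes, their signal was 30096 in columnar/hypertrophic and 95351 in round cartilage. Postn, encoding periostin, had 158 in columnar/hypertrophic and 1919 in round cartilage (-3.60). Fap, a fibroblast surface protease gene, differed by -2.78, the decorin gene Dcn by -2.42 and the collagen gene Col3a1 by -2.39. The tendon factor gene Scx and the dermatopontin gene Dpt were detected on neither array. The part of such tissue in the Sox4 and Sox11 differences was not tested.

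**Figure D2:**
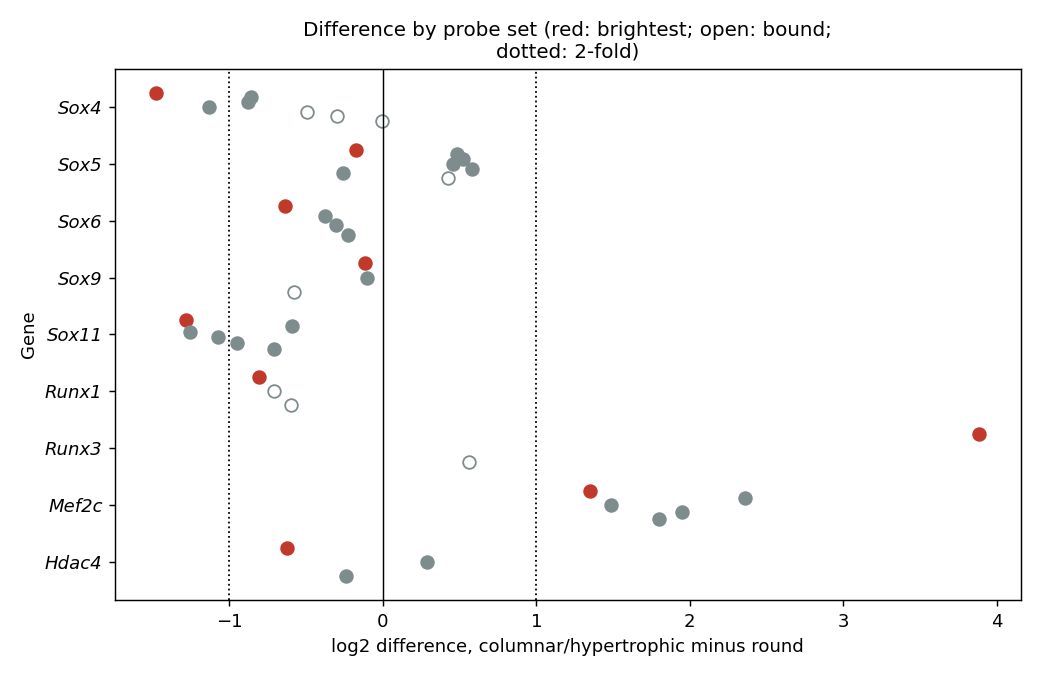
Log2 difference, columnar/hypertrophic minus round, of the 40 probe sets with a value, by gene. Red marks the brightest probe set, open points are bounds and dotted lines mark 2-fold. All 5 Mef2c points lie above 1, all 6 Sox11 points lie under 0, and Sox5 and Hdac4 have points on both sides of 0.

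No other SOX gene passed 2-fold in either direction. Of 15 further family members with a probe set, 6 were measured, with a median of 0.17. A count of 0 among 6 genes is near the shares over all measured genes, 4.31% higher and 6.37% lower. One of them, Sox21, was detected in columnar/hypertrophic cartilage alone, with 136 there and 63.5 in round cartilage, a bound of at least 1.35-fold higher. Sox8, which encodes the relative of SOX9 with overlapping roles, had 2438 in columnar/hypertrophic and 2535 in round cartilage (-0.06). Sox12, the remaining SOXC gene, had 444 in columnar/hypertrophic and 584 in round cartilage (-0.39, and -0.66 by its other measured probe set). Sox10, a neural crest and Schwann cell gene, had 195 in columnar/hypertrophic and 170 in round cartilage, but its other measured probe set gave -0.97. The endothelial genes Sox17 and Sox18 were detected on neither array, as were the other 8 endothelial markers listed.

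The genes that SOX9, SOX5 and SOX6 activate, most of them of the cartilage matrix, lay mostly within 2-fold, with a positive median. Of 23 measured, 2 were at least 2-fold higher in columnar/hypertrophic cartilage, 1 was lower and 20 were within 2-fold. The shares over all measured genes were 4.31% higher and 6.37% lower. The list median was 0.28. It was 0.05 after lowess centring and 0.56 with equal medians, which gave 3 genes higher. Col2a1 differed by 0.19 and Acan by 0.36. Many of these genes were among the brightest on the arrays, and Col9a1 had the highest signal of the columnar/hypertrophic array, with a difference of 0.26. Whether signals near the top of the range are compressed was not tested, so small differences here do not show equal levels. Loxl4, a lysyl oxidase relative, had 1154 in columnar/hypertrophic and 111 in round cartilage, 10.4-fold higher (3.38), while its other probe set gave 1.79. Fgfr3, the receptor gene that restrains growth plate proliferation, had 21111 in columnar/hypertrophic and 10093 in round cartilage (1.06, and 1.54 by its other probe set). It fell short of 2-fold with quantile normalization or lowess centring, which left 1 gene higher. Ucma, encoding a cartilage matrix protein rich in carboxylated glutamate, had 4115 in columnar/hypertrophic and 17706 in round cartilage, 4.30-fold lower (-2.18 by its other probe set). Pcsk6, a proprotein convertase gene, differed by 0.81.

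Genes of SOX9 cofactors were mostly within 2-fold. Of 11 measured, 2 were at least 2-fold higher in columnar/hypertrophic cartilage and 1 lower, with a median of -0.29. Over all measured genes, smaller shares passed 2-fold, 4.31% higher and 6.37% lower. The Mediator subunit gene Med12 had 2239 in columnar/hypertrophic and 775 in round cartilage (1.53, by 1 probe set). Nkx3-2, a homeobox gene of immature chondrocytes, had 267 in columnar/hypertrophic cartilage and lay under the floor in round cartilage (78.9), at least 2.66-fold higher, a bound that a floor raised to the 99th percentile took under 2-fold. Arid5b, a chromatin coregulator gene, had 171 in columnar/hypertrophic and 584 in round cartilage (-1.78), but its other measured probe sets gave -0.65 and -0.45, and it came within 2-fold with their mean. Ep300, encoding the histone acetyltransferase p300, differed by -0.59.

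Runx3, whose protein acts beside RUNX2 in hypertrophic maturation, had the largest difference of the 9 genes. Its brighter probe set had 2638 in columnar/hypertrophic and 178 in round cartilage, 14.8-fold higher (3.89), the 8th highest among the 10235 genes that both arrays detected. The round signal lay less than 2-fold above the floor. The other probe set had 148 in columnar/hypertrophic and 8.09 in round cartilage, a bound of at least 1.48-fold higher. Both were therefore higher in columnar/hypertrophic cartilage, and their mean, which takes in this bound, was at least 2.22.

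Runx1, which acts early in chondrogenesis and in blood stem cells, stayed close to the floor. The brightest of its 6 probe sets had 102 in columnar/hypertrophic and 179 in round cartilage (-0.80). Another had 4.62 in columnar/hypertrophic and 164 in round cartilage, a bound of at least 1.63-fold lower. The next had 17.6 in columnar/hypertrophic and 152 in round cartilage, at least 1.52-fold lower, and the other 3 were detected on neither array. Among blood and immune markers, 6 of 9 with a probe set were detected on neither array, including the leukocyte gene Ptprc (14.6 in columnar/hypertrophic and 20.3 in round cartilage). The macrophage gene Lyz2 was higher, with 293 in columnar/hypertrophic and 130 in round cartilage, and Csf1r was lower, with 129 in columnar/hypertrophic and 190 in round cartilage.

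RUNX genes are read from a distal and a proximal promoter, and RUNX proteins bind the letters ACCACA, or TGTGGT on the opposite strand. The distal promoters of Runx3 and Runx1 are shown because each held a pair of matches to this motif. Any link between the motifs and the signals was not tested. The RefSeq promoter table (GRCm38.p6) held 17 windows of 8 of the regulator genes, each with 250 bases before and 50 after an annotated start. Sox9 was not in it. Motif matches, in capitals, are on the strand of the gene.
Runx3 chr4:135120503-135120532, plus strand: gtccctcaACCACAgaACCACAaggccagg
Runx1 chr16:92826025-92826054, minus strand: cataaacaACCACAgaACCACAagttgggt
In both windows the matches start 8 bases apart. They start 134 and 126 bases before the annotated start in Runx3, and at bases 29 and 37 after it in Runx1. All 250 bases before the distal Runx3 start place the pair in context.
Runx3 chr4:135120395-135120644, plus strand: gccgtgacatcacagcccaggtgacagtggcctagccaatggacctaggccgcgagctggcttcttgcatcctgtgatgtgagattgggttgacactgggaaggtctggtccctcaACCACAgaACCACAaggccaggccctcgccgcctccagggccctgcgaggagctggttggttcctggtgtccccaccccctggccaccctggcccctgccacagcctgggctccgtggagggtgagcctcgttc
The proximal windows of Runx3 and Runx1 held 0 matches. Of the 17 windows, 4 held the motif on either strand, the others being 2 of the 6 Sox6 windows. Over all 32851 promoter windows of this length, 16.8% held at least 1 match and 1.81% at least 2. The spacing was read from the Runx3 and Runx1 windows themselves. Counting these, 7 windows (0.0213%) held 2 on 1 strand at this spacing. A match describes letters alone, and which start the probe sets read is not given in the sources used here.

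The gene of the RUNX partner subunit and the measured corepressor genes of the ETO family did not follow Runx3. Cbfb, which encodes the shared partner subunit that stabilises RUNX proteins on DNA, had 5856 in columnar/hypertrophic and 6369 in round cartilage (-0.12). Runx1t1, a corepressor gene of the ETO family, had 207 in columnar/hypertrophic and 829 in round cartilage, 4.01-fold lower, and its other 4 measured probe sets ran between -3.40 and -1.77. Its relative Cbfa2t2 differed by -0.37, with other probe sets between -1.09 and 0.03.

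Mef2c, which encodes an activator of the hypertrophic collagen gene, was at least 2-fold higher in columnar/hypertrophic cartilage by each of its 5 probe sets. The brightest had 3099 in columnar/hypertrophic and 1215 in round cartilage, 2.55-fold higher (1.35). A second had 3536 in columnar/hypertrophic and 689 in round cartilage, 5.13-fold higher (2.36). The remaining 3 had 2509, 1860 and 1540 in columnar/hypertrophic cartilage, against 893, 482 and 442 in round cartilage, and were 2.81-fold, 3.86-fold and 3.48-fold higher. The brightest probe set was the one with the smallest difference, and the mean over all 5 was 1.79. Its brightest probe set gave the 194th highest difference among those 10235 genes.

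Of the other MEF2 genes, Mef2a was lower in columnar/hypertrophic cartilage and Mef2d had no settled direction. Mef2a had 1689 in columnar/hypertrophic and 3534 in round cartilage, 2.09-fold lower (-1.07), with its other 5 probe sets between -1.28 and -0.37. It came within 2-fold with equal medians and with the mean of probe sets. Mef2d had 1380 in columnar/hypertrophic and 1395 in round cartilage (-0.02), with other probe sets at 0.15 and 0.78. Mef2b was detected on neither array. MEF2 proteins are also abundant in skeletal muscle and endothelium. Muscle markers had 6 of 10 genes under the floor on both arrays, Myod1 and Myog among them, and their summed signal was 612 in columnar/hypertrophic and 631 in round cartilage. Tnnt3, a troponin gene of fast muscle, had 429 in columnar/hypertrophic cartilage and lay under the floor in round cartilage (63.4), while the desmin gene Des lay under the floor in columnar/hypertrophic cartilage (29.1) and had 258 in round cartilage. The endothelial list summed to 347 in columnar/hypertrophic and 421 in round cartilage, with Pecam1 at 7.56 and 10.3. The part of these tissues in the Mef2c difference was not tested.

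Hdac4, the repressor gene of hypertrophy, had low signals and no settled direction. Its 3 probe sets had 275, 342 and 150 in columnar/hypertrophic cartilage, against 423, 281 and 177 in round cartilage. Their differences were -0.62, 0.29 and -0.24, all within 2-fold, and their mean was -0.19. The related genes Hdac5 and Hdac7 differed by -0.61 and -0.57, and Hdac9 was detected on neither array.

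HDAC4 is moved out of the nucleus once kinases phosphorylate it and adaptor proteins of the YWHA family bind it. Of 16 measured genes of class IIa deacetylases, these kinases and adaptors, 0 were at least 2-fold higher in columnar/hypertrophic cartilage and 2 lower, and the median was -0.10. The shares over all measured genes were 4.31% and 6.37%. Prkd1, a protein kinase D gene, had 451 in columnar/hypertrophic and 1442 in round cartilage, 3.20-fold lower (-1.67 by its other probe set). Prkd2 lay under the floor in columnar/hypertrophic cartilage (80.6) and had 260 in round cartilage, at least 2.59-fold lower, with other measured probe sets between -1.13 and -0.36. A floor raised to the 99th percentile, or the mean of probe sets, took it under 2-fold, which left 1 gene lower. Sik3, whose product phosphorylates HDAC4 in the growth plate, had 1791 in columnar/hypertrophic and 1792 in round cartilage, with other probe sets between 0.15 and 0.81. The 6 adaptor genes, by their brightest probe sets, lay between 0.20 and 0.48.

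Genes that RUNX and MEF2C proteins activate in hypertrophic chondrocytes were mostly higher in columnar/hypertrophic cartilage. Of 9 measured, 7 passed 2-fold in this direction and 0 in the other, with a median of 2.69, and 4 further genes were not detected. The collagen X gene Col10a1 and the pannexin gene Panx3 were at least 108-fold and 161-fold higher, though a further Panx3 probe set gave a bound of 1.99 on the log2 scale. Ihh, the hedgehog ligand gene of prehypertrophic cells, had 2153 in columnar/hypertrophic and 143 in round cartilage. Sp7, which encodes osterix, had 1940 in columnar/hypertrophic and 170 in round cartilage, 11.4-fold higher. Vegfa, the angiogenic factor gene, went the other way, with 1657 in columnar/hypertrophic and 3087 in round cartilage (-0.90, and -0.65 by its other probe set). The collagenase gene Mmp13, a target of RUNX2 in terminal cells, was detected on neither array, with 11.7 in columnar/hypertrophic and 22.8 in round cartilage. Sp7 and Alpl also mark osteoblasts. Of 6 osteoblast markers measured, 2 were at least 2-fold higher in columnar/hypertrophic cartilage and 1 lower, with a median of 0.44, and their list summed to 40959 in columnar/hypertrophic and 37308 in round cartilage. The higher ones were Sp7 and the alkaline phosphatase gene Alpl, which had 455 in columnar/hypertrophic cartilage and lay under the floor in round cartilage (69.5), at least 4.53-fold higher. Ibsp, encoding bone sialoprotein, had 124 in columnar/hypertrophic and 0.941 in round cartilage, a bound of at least 1.23-fold higher. Ifitm5 had 238 in columnar/hypertrophic and 159 in round cartilage. Sparc had 37494 in columnar/hypertrophic and 35218 in round cartilage (0.09), and so made up most of both list sums. The lower one, Col1a1, had 696 in columnar/hypertrophic and 1672 in round cartilage, and came within 2-fold with equal medians. Dmp1 and Phex were detected on neither array. The part of osteoblasts in the Sp7 difference was not tested.

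Genes whose products assist or oppose RUNX2 were split. Of 25 measured, 4 were at least 2-fold higher in columnar/hypertrophic cartilage, 2 were lower and 19 were within 2-fold, and the median was -0.09. Over all measured genes, 4.31% were higher and 6.37% lower. The count of higher genes was 3 with lowess centring, the 99th percentile floor or the mean of probe sets, and 5 without a floor. The count of lower genes was 3 with quantile normalization, lowess centring or the mean of probe sets. Dlx5, a homeobox activator gene, had 1866 in columnar/hypertrophic and 142 in round cartilage, 13.1-fold higher by 1 probe set. Smad1, a BMP signal transducer gene, differed by 2.02, with its other probe sets at 1.48 and 1.58. Nkx3-2 was higher as given above, and Hivep3, whose product promotes RUNX2 breakdown, differed by 1.01 but had another probe set at -0.30. In the other direction, the Groucho corepressor gene Tle2 had 215 in columnar/hypertrophic and 613 in round cartilage (-1.51). Zfp521, which encodes an antagonist of RUNX2, had 1391 in columnar/hypertrophic and 3733 in round cartilage (-1.42, and -0.81 by its other probe set). Twist1, an inhibitor gene that also marks perichondrial mesenchyme, differed by -0.75.

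**Figure D3:**
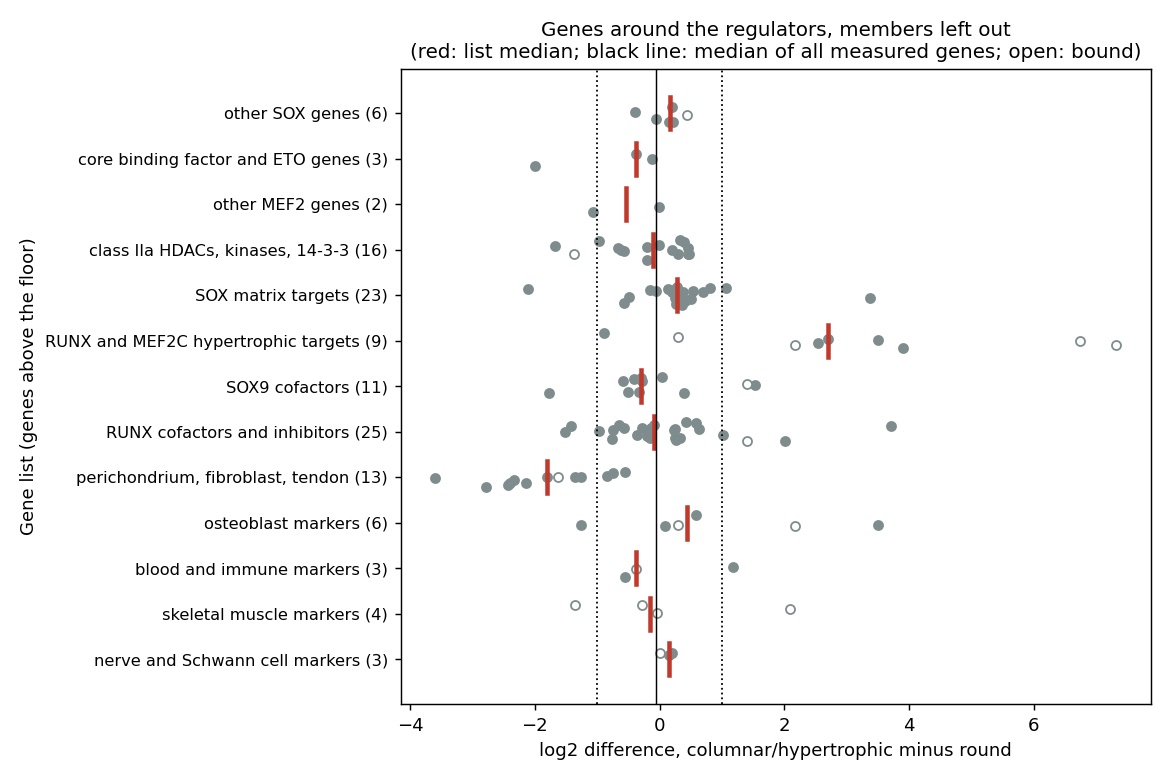
Log2 difference, columnar/hypertrophic minus round, of genes around the regulators, 1 point per measured gene (number in brackets), with the regulators themselves left out. Red bars are list medians, the black line is the median of all measured genes, open points are bounds and dotted lines mark 2-fold. The hypertrophic targets (median 2.69) lie mostly right of 2-fold and the perichondrium, fibroblast and tendon genes (-1.81) mostly left of it, while the SOX matrix targets cluster near 0.28.

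The scaling of the arrays and the choice of probe set moved the single genes unequally. Across 8 alternatives, Runx3 lay between 2.22, a mean that takes in a bound, and 4.17. Mef2c lay between 1.30 and 1.79. Sox4 lay between -1.56 and -0.64 and Sox11 between -1.42 and -0.98. Sox6, Runx1 and Hdac4 stayed under 0, between -0.75 and -0.36, -0.80 and -0.30, and -0.62 and -0.19. Sox9 (-0.28 to 0.16) and Sox5 (-0.26 to 0.29) had values on both sides of 0.

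**Figure D4:**
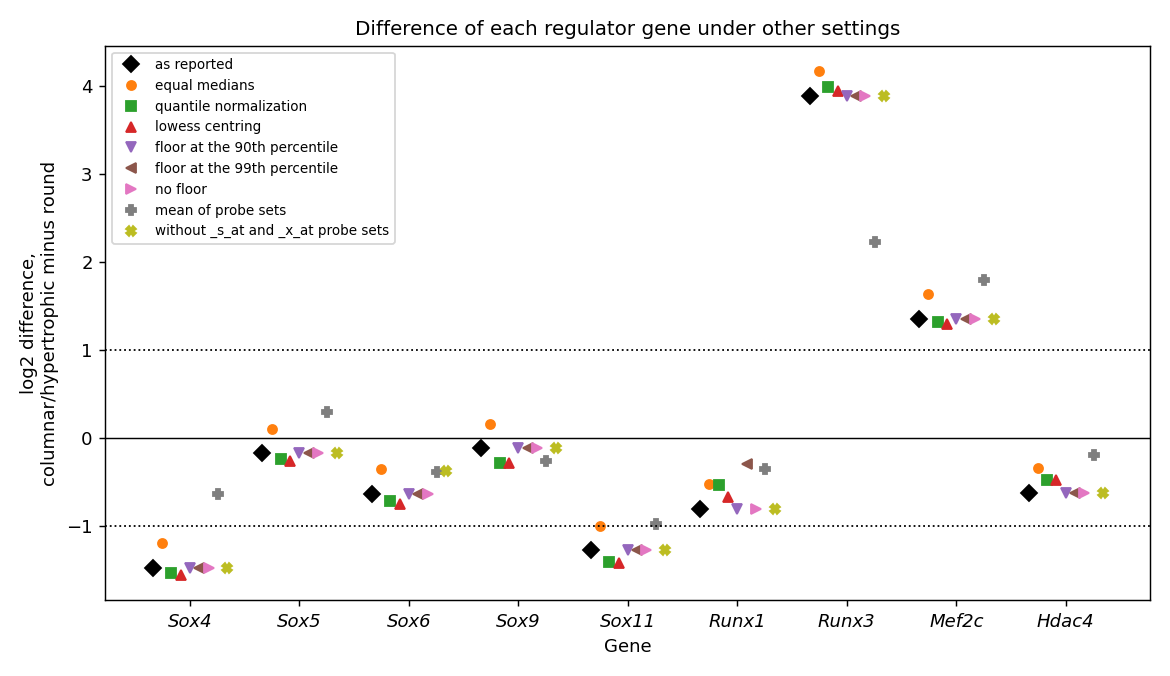
Log2 difference, columnar/hypertrophic minus round (vertical), of each regulator gene as reported (black diamonds) and under 8 alternatives of scaling, floor and probe set choice (other symbols). Dotted lines mark 2-fold. Runx3 and Mef2c lie above 1 under each setting, and Sox4 and Sox11 come within 2-fold with the mean of probe sets. For Sox4 this mean takes in bounds and an undetected probe set.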

How the data were processed

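The authors deposited 1 linear signal intensity per probe set for each of 2 arrays of biotin-labelled cRNA. The submitters' processing notes name MAS5, without a version, while the study's methods name RMA. The deposited intensities were linear, reached down to 0.0948 and had a mean of 500.0 on both arrays after trimming 2% at each end, so they were read as MAS5 signals scaled to a common mean. Such signals are noisy for weakly expressed genes.

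Gene symbols came from the platform annotation (34958 with 1 gene symbol, 932 with several, 9211 unnamed here), and were updated through the RefSeq table of GRCm38.p6, which held the Entrez identifiers of 34741. The arrays name no genome build. The floor was the 95th percentile of 87 chemosensory receptor probe sets over both arrays, and lower signals were set to it before taking log2. The brightest probe set of a gene had the highest mean log2 signal. In the mean of probe sets, bounds entered at their floored values and undetected probe sets as 0. The calculation was tested on simulated data. Python 3.11.15, pandas 2.3.3, numpy 2.4.6, statsmodels 0.14.6 and matplotlib 3.10.9 were used.

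The regulators and gene lists were chosen with earlier results of these data known. All regulators were named, with members of the SOX, RUNX, MEF2 and deacetylase lists at least 2-fold different, up to 4 genes of every other list with the largest differences, and Col2a1, Acan, Col10a1, Ihh, Cbfb, Mef2a and Mef2d. Any other gene was named with its values known. The alternatives tried were equal medians, quantile normalization, lowess centring (span 0.3), floors at the 90th and 99th percentile, no floor, the mean of probe sets, exclusion of _s_at and _x_at probe sets, and thresholds of 1.5-fold and 3-fold. Precision is limited by the number of arrays.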

Additional observations from a re-analysis of the deposited data

How the results depend on the processing

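The count of 2 regulator genes at least 2-fold higher in columnar/hypertrophic cartilage held under each other scaling, floor and probe set choice, and was 1 at a threshold of 3-fold. The count of 2 lower genes was 1 with equal medians, 0 with the mean of probe sets, 5 at 1.5-fold and 0 at 3-fold. For Sox4, that mean takes in bounds and an undetected probe set. The median of the 9 differences (-0.62) ran between -0.62 and -0.27. Of 72 single-gene values under alternatives, 65 moved by less than 0.367, 7 moved by more and 0 reversed a 2-fold difference. Of 280 list counts, 35 changed by over 1.5 times, and of 104 list medians, 5 moved by more than 0.367. Without a floor, 1644 genes in all were at least 2-fold higher and 3046 lower, and with the mean of probe sets 371 were higher and 490 lower. No paired analysis was possible because each group is 1 array. Signals near the floor, as for Runx1 and for Runx3, Loxl4, Dlx5, Ihh and Sp7 in round cartilage, limit the differences of those genes. The round signals of Loxl4, Dlx5 and Ihh lay under the 99th percentile floor of 145.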
